A study of Mus musculus with 15 samples.

Results

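Immediate early genes are the first genes transcribed after a neuron is stimulated. The 35 described here are a list of activity-regulated genes: transcription factors, signalling brakes and synaptic or secreted effectors. Whether each of them belongs to the first wave was not tested. A member was kept when its row in the deposited table of normalized read counts reached 10 or more in at least 3 of the 15 libraries, and all 35 were kept, out of 26595 genes in the table and 17030 genes that passed the same filter. The least abundant was Maff, which was below 10 in 1 library of KO cortex. The other 34 members were at 10 or more in every library. This filter uses the level of a gene and no difference between groups. The list itself was chosen with earlier results of these data known.

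RNA of striatum and cerebral cortex was sequenced from male C57Bl/6 mice aged 5 months. KO mice had the genotype SLC1a4 -/-, a knockout of the gene of ASCT1, a transporter of neutral amino acids such as serine and alanine, and WT mice were wild type. There were 3 libraries of KO striatum (replicates 2 to 4), 4 of WT striatum (replicates 5 to 8), 4 of KO cortex (replicates 1 to 4) and 4 of WT cortex (replicates 5 to 8), and per-library values below are given in that order of replicates. The labels name no treatment, stimulus or time of day, do not say which stretch of Slc1a4 was removed, and do not say that replicates are separate animals, so a p-value here speaks of the spread among libraries, which may be technical.

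Calcium entering an active neuron starts kinases that act on transcription factors already bound to DNA, among them CREB at cAMP response elements and SRF at CArG boxes, and the genes these control are switched on without new protein being made. Their products then switch on slower genes, restrain the kinases that induced them, or reshape synapses. In cortex and striatum they are widely used as a read-out of recent neuronal firing, and they also respond to handling, novelty and stress.

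Sequencing depth was 22990233 to 25697792 assigned reads per striatum library and 26791109 to 30276815 per cortex library. Slc1a4 itself had 271 ± 99.3 normalized counts in KO striatum, against 1533 ± 217 in WT striatum (SD, n = 3 and 4), and 265 ± 28.7 in KO cortex, against 1624 ± 127 in WT cortex (n = 4 each), and the groups did not overlap in either tissue. The tissues carried their defining markers: summed over 12 markers of striatal projection neurons, striatum libraries had 48114 to 210352 normalized counts and cortex libraries 10187 to 24316, and over 9 markers of cortical excitatory neurons striatum had 3198 to 12712 and cortex 50408 to 56649. Some striatum libraries stood apart. KO striatum 4 and WT striatum 5 had 90604 and 147787 normalized counts over 9 choroid plexus markers, against 1954 to 6973 in the other striatum libraries. KO striatum 4 and WT striatum 8 had 37188 and 22319 over 7 markers of thalamus, septum and pallidum, against 5295 to 10083 in the others, and were the lowest of their groups for striatal projection neuron markers. Counts that rest on striatum are therefore also given without KO striatum 4 and WT striatum 5, and without KO striatum 4 and WT striatum 8; both choices were made after seeing the data.

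The sequences around the start of 4 members with large differences between striatum and cortex are shown for the motif through which CREB acts. They are printed 5′ to 3′ on the strand of the gene, from 250 bases before to 50 bases after the start that RefSeq gives on GRCm38.p6, with every TGACG or its reverse complement CGTCA, the core of the cAMP response element, in capitals. The windows are chr1:150099781-150100080 on the plus strand for Ptgs2, chr2:57123954-57124253 on the minus strand for Nr4a2, chr19:4989922-4990221 on the minus strand for Npas4 and chr1:155099587-155099886 on the minus strand for Ier5.
Ptgs2: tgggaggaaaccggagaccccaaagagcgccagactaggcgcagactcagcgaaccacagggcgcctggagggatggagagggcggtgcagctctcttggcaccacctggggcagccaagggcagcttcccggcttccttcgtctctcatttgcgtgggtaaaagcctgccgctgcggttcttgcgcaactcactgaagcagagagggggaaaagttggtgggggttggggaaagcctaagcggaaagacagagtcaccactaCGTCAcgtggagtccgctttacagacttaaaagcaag
Nr4a2: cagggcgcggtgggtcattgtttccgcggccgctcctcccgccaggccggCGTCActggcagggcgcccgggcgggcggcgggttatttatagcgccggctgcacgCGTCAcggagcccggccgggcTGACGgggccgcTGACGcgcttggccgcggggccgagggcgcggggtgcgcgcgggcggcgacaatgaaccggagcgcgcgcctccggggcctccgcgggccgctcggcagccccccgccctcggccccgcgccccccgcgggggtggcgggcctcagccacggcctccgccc
Npas4: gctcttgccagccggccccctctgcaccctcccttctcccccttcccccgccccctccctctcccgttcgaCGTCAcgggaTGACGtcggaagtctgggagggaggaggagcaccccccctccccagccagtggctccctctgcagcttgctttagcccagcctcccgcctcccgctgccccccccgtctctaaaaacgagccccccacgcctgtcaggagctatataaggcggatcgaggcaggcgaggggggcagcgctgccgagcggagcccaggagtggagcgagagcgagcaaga
Ier5: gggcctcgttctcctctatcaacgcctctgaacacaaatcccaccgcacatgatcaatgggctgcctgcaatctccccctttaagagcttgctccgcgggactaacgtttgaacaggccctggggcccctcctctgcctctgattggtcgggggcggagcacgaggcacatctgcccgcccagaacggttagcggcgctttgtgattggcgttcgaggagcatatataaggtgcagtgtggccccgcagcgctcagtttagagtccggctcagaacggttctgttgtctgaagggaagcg
The Ptgs2 window holds 1 such match, which begins 13 bases after the start that RefSeq gives. Where transcription of Ptgs2 starts in these libraries was not tested. The Nr4a2 window holds 4 and the Npas4 window 2, all before the start, and the Ier5 window 0. RefSeq's promoter table held 28 of the 35 members, and 19 of these 28 (67.9%) had a TGACG on either strand, among them Fos, Fosb, Junb, Nr4a1 and Nr4a3, against 21.02% of all 27025 promoters of the same length. The full palindrome TGACGTCA, whose matches are also TGACG matches, stood in 5 of 28 members (Dusp1, Btg2, Plk2, Arl4d and Scg2), and in 1.88% of all promoters. A CArG box stood in 1 of 28 members, Dusp5, and in 1.57% of all promoters. The AP-1 motif TGANTCA stood in 0 of 28 members and in 7.93% of all promoters. These are matches of letters in a short window, not measured binding.

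Per kilobase of merged exon, the levels of the set spanned from Maff, with 8.32 normalized counts in WT striatum and 8.08 in WT cortex, to Scg2, with 3754 and 1785. On the same scale Arc had 559 in WT striatum and 1775 in WT cortex. Egr1 had 743 and 1556, and Plk2 1172 and 1045. Fos, the best known of them, had 106 per kilobase in WT striatum and 317 in WT cortex.

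The first question was how the set differs between the tissues. Most members had lower means in striatum than in cortex. In KO mice 21 of 35 members passed the test (limma on log2 of the normalized count plus 1, Benjamini-Hochberg adjusted p below 0.05 over 17030 genes), 18 of them lower and 3 higher in striatum, where the test called 37.9% of all genes, 19.5% lower and 18.4% higher. In WT mice 22 members passed, 19 lower and 3 higher, against 50.5% of all genes, 25.7% lower and 24.9% higher. The 3 higher members were Rgs2, Scg2 and Sik1 in both genotypes. The median log2 fold change of the members was -1.05 in KO and -0.74 in WT, while the median over all genes tested was 0.0024 in KO and 0.0058 in WT.

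A total of 19 members passed in both genotypes, 11 passed in neither, Egr4 and Junb passed in KO mice alone and Btg2, Dusp1 and Fos in WT mice alone, Dusp1 being just short of the threshold in KO mice (-0.68, adjusted p = 0.0509); no member passed the test of the difference between genotypes described further on. In KO mice striatum and cortex did not overlap for 18 lower and 2 higher members, against 21.4% and 20.1% of all genes. In WT mice they did not overlap for 14 lower and 3 higher members, against 24.3% and 23% of all genes. Without the 2 choroid-rich striatum libraries 18 members passed in KO mice and 22 in WT mice, and without the 2 striatum libraries low in striatal markers 19 and 23. In bulk tissue, fewer cells of a type and less RNA per cell cannot be told apart, and the markers above show that the tissues are made of different neurons; how far this enters the differences was not tested.

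**Figure D1:**
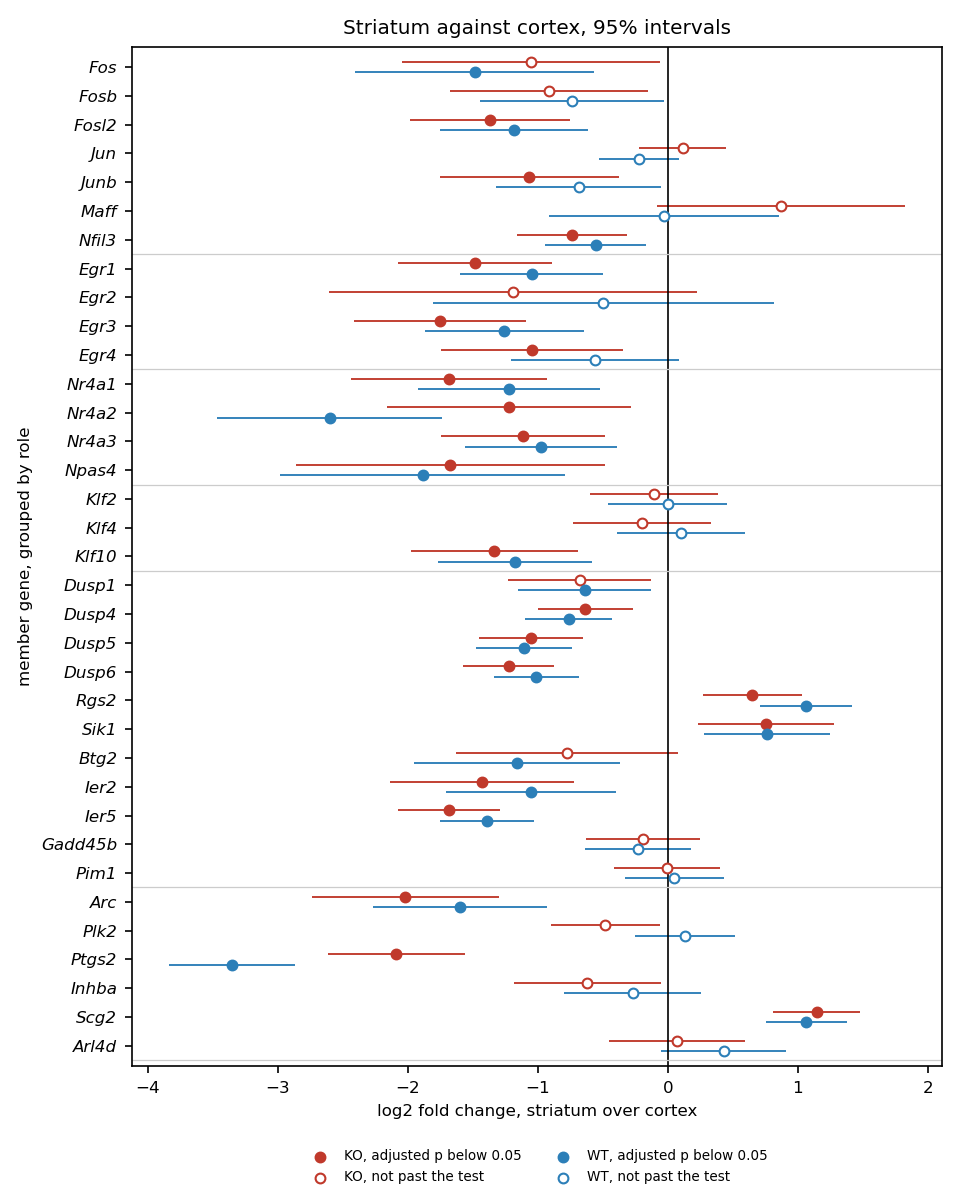
Log2 fold change of each member between striatum and cortex in KO mice (red) and WT mice (blue), with 95% intervals; filled points passed the test. Most points lie left of 0, Ptgs2 lies farthest left in both genotypes, and Rgs2, Sik1 and Scg2 are filled on the right.

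Among the bZIP factors, which bind DNA as pairs, 3 of 7 passed in each genotype, all lower in striatum. Fos, the founding member of AP-1, had normalized counts of 272, 636 and 359 in KO striatum, against 841, 509, 1039 and 1026 in KO cortex, and 127, 179.8, 369 and 323 in WT striatum, against 321, 567, 1441 and 653 in WT cortex. The striatum was lower on average in both genotypes but the tissues overlapped, and WT cortex 7 alone lay above all other libraries. The log2 fold change of Fos was -1.05 (SE 0.47, adjusted p = 0.089) in KO mice, which did not pass, and -1.49 (SE 0.43, adjusted p = 0.0101) in WT mice. In KO mice Fos passed with KO libraries fitted alone (adjusted p = 0.0417), with a block on the replicate number (0.00424) and without KO striatum 3 (0.0477). Fosl2, another AP-1 subunit, had 351, 782 and 499 in KO striatum, against 1633, 809, 1588 and 1514 in KO cortex, and 447, 351, 556 and 495 in WT striatum, against 955, 745, 1355 and 1191 in WT cortex. Its striatum libraries all lay below the cortex libraries of the same genotype, with log2 fold changes of -1.37 (SE 0.29, adjusted p = 0.00182) in KO and -1.18 (SE 0.27, adjusted p = 0.00197) in WT.

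Nfil3, a repressor of clock-controlled genes, averaged 152 ± 25.3 in KO striatum, 253 ± 27 in KO cortex, 146 ± 38.2 in WT striatum and 214 ± 44.2 in WT cortex (SD, n = 3 for KO striatum and 4 for the other groups, here and below) and passed in both genotypes, with log2 fold changes of -0.74 in KO and -0.56 in WT mice; the WT call was lost without WT cortex 7, WT striatum 5 or WT striatum 7 (adjusted p = 0.0501 to 0.0674). Junb averaged 789 ± 191 in KO striatum, 1669 ± 416 in KO cortex, 890.4 ± 289.9 in WT striatum and 1498 ± 749 in WT cortex and passed in KO only, at -1.07, a call lost without KO striatum 2 or KO striatum 4 (adjusted p = 0.0544 and 0.0562). Exons of Junb overlap those of Prdx2 on the other strand, and the strand setting of the counting is not given in the sources used here, so its counts are uncertain. Fosb, Jun and Maff did not pass in the main fit. Fosb had an adjusted p of 0.0562 in KO and 0.0763 in WT mice. It passed, lower in striatum, in both genotypes with DESeq2 on the recovered reads (0.0288 in each). A block on the replicate number also gave calls for Fosb (0.0455 in KO, 0.0203 in WT). Maff passed in KO mice, higher in striatum, with that block (0.0428), with sample weights (0.0442) and without KO cortex 2 (0.0433). Fosb averaged 262 ± 121 in KO striatum, 489.9 ± 171 in KO cortex, 256 ± 55.5 in WT striatum and 446 ± 174 in WT cortex. Jun, whose exons overlap the weakly expressed antisense gene Junos, had log2 fold changes near 0 and averaged 1307 ± 297 in KO striatum, 1196 ± 208 in KO cortex, 1056 ± 116 in WT striatum and 1231 ± 138 in WT cortex. Maff, a small Maf protein without an activation domain, averaged 36.6 ± 21.1 in KO striatum, 20.1 ± 11.9 in KO cortex, 21.6 ± 9.27 in WT striatum and 21 ± 2.89 in WT cortex.

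The 4 EGR zinc-finger factors were all lower in striatum on average, with 3 calls in KO and 2 in WT mice. Egr1, the most abundant of them per kilobase, had 2883, 3636 and 2281 in KO striatum, against 8956, 5317, 9556 and 9311 in KO cortex, and 3770.3, 2514, 4458 and 2587 in WT striatum, against 4644, 5864, 10277 and 7118 in WT cortex. Every striatum library lay below every cortex library, with log2 fold changes of -1.49 (SE 0.28, adjusted p = 0.000792) in KO and -1.05 in WT mice, both called. Egr3 had 745, 1000.4 and 482 in KO striatum, against 2908, 1481, 2974 and 2581 in KO cortex, and 1291, 858, 1328 and 552 in WT striatum, against 2094, 2137, 2678 and 2224 in WT cortex. Its tissues did not overlap in either genotype, with log2 fold changes of -1.75 (SE 0.31, adjusted p = 0.000495) in KO and -1.26 (SE 0.29, adjusted p = 0.00209) in WT. Egr4 averaged 370.1 ± 94.5 in KO striatum, 785 ± 238 in KO cortex, 494 ± 212 in WT striatum and 702 ± 202 in WT cortex and passed in KO mice at -1.05, a call that was lost without any of KO cortex 1, 3 or 4 or KO striatum 4 (adjusted p = 0.0533 to 0.0819). Egr2, known from myelinating glia and hindbrain as well as from active neurons, averaged 107 ± 56.5 in KO striatum, 250.1 ± 121 in KO cortex, 119 ± 80.8 in WT striatum and 185 ± 167 in WT cortex and did not pass, with intervals of -2.61 to 0.23 in KO and -1.81 to 0.82 in WT.

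The NR4A orphan nuclear receptors and Npas4 all passed in both genotypes, 4 of 4 lower in striatum. Nr4a1 had 666, 1210.0 and 848 in KO striatum, against 3379, 1443, 3686 and 3588 in KO cortex, and 1136, 681, 1387 and 905 in WT striatum, against 1708, 2016, 3984 and 2100.5 in WT cortex, without overlap between tissues within a genotype. Its log2 fold change was -1.69 (SE 0.35, adjusted p = 0.00178) in KO mice and -1.22 (SE 0.33, adjusted p = 0.00616) in WT mice. Nr4a2, also called Nurr1 and known from dopamine neurons and from deep cortical layers, had 479.6, 590.4 and 428 in KO striatum, against 776, 1233, 1128 and 1651 in KO cortex, and 69.4, 102, 369 and 118 in WT striatum, against 1086, 485, 771 and 1055 in WT cortex. All striatum libraries lay below the cortex libraries of their genotype, and the 4 WT striatum values were the lowest of all 15. The log2 fold change of Nr4a2 was -1.22 (SE 0.44, adjusted p = 0.0394) in KO mice and -2.60 (SE 0.41, adjusted p = 0.000103) in WT mice. The KO call of Nr4a2 was lost when any of KO cortex 2, 3 or 4 or any KO striatum library was left out (adjusted p = 0.0537 to 0.102). Nr4a3 averaged 499.5 ± 204 in KO striatum, 1056 ± 267 in KO cortex, 361 ± 104 in WT striatum and 712 ± 214 in WT cortex, and its log2 fold change was -1.11 in KO and -0.98 in WT.

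Npas4, a factor induced by calcium and known for its part in forming inhibitory synapses, had 222, 412 and 194 in KO striatum, against 601, 658, 1114 and 1101 in KO cortex, and 94.4, 305, 538 and 143 in WT striatum, against 395, 1200.0, 1608 and 555 in WT cortex. The tissues were apart in KO mice and overlapped in WT mice, where WT striatum 7 lay above WT cortex 5. Its log2 fold change was -1.67 (SE 0.56, adjusted p = 0.0276) in KO mice and -1.89 (SE 0.51, adjusted p = 0.00703) in WT mice. The KO call of Npas4 was lost without KO cortex 3, KO cortex 4, KO striatum 2 or KO striatum 4 (adjusted p = 0.0673 to 0.0880).

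Of the 3 Krüppel-like factors only Klf10, which is induced by TGF-beta, passed, and it did so in both genotypes. It had 836, 287 and 263 in KO striatum, against 1046, 1235, 872 and 905 in KO cortex, and 434, 387, 448 and 281 in WT striatum, against 786, 915, 931 and 830.2 in WT cortex. KO striatum 2 lay within the range of the WT cortex libraries, while all other striatum libraries lay far below cortex. The log2 fold change of Klf10 was -1.33 (SE 0.30, adjusted p = 0.00291) in KO and -1.18 (SE 0.28, adjusted p = 0.00267) in WT mice. Klf2 averaged 228 ± 30.2 in KO striatum, 244 ± 18 in KO cortex, 228 ± 79.8 in WT striatum and 223 ± 53.5 in WT cortex, and Klf4 averaged 153 ± 21.7 in KO striatum, 179 ± 46.5 in KO cortex, 190.2 ± 59.4 in WT striatum and 175 ± 39.2 in WT cortex. Both are best known from endothelial cells, among other cell types, and neither passed.

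The next 11 members, among which most dampen signalling or growth, split in direction: 5 lower and 2 higher passed in KO mice, 7 lower and 2 higher in WT mice. The dual-specificity phosphatases, which remove phosphate from MAP kinases, were lower on average in striatum. Dusp6, which acts on ERK in the cytoplasm, had 891, 731 and 1002 in KO striatum, against 2096, 1625, 2233 and 2218 in KO cortex, and 859, 745, 955 and 936 in WT striatum, against 1412, 1585, 2374 and 1778 in WT cortex. Its tissues did not overlap, with log2 fold changes of -1.22 (SE 0.16, adjusted p = 5.39e-05) in KO and -1.01 in WT. Dusp5, which acts on ERK in the nucleus, averaged 176 ± 28.8 in KO striatum, 366 ± 59.5 in KO cortex, 139 ± 26.4 in WT striatum and 299 ± 57.4 in WT cortex, with log2 fold changes of -1.05 in KO and -1.10 (SE 0.17, adjusted p = 0.000107) in WT. Dusp4 passed too, at -0.63 in KO and -0.76 in WT, and its values are given with the genotypes below. Dusp1 averaged 532 ± 164 in KO striatum, 853 ± 231 in KO cortex, 513 ± 85.8 in WT striatum and 814 ± 229.9 in WT cortex; its log2 fold change in KO mice was -0.68 (SE 0.26, adjusted p = 0.0509), which passed in 12 of the 29 alternative settings, edgeR and DESeq2 included. It passed in WT mice at -0.64, a call lost in 5 of the 15 fits that left out 1 library (adjusted p = 0.05025 to 0.121), and its exons overlap those of Ergic1 on the other strand, so its counts are uncertain.

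Ier5 and Ier2 are early response proteins of the nucleus. Ier5 had 932, 724 and 537 in KO striatum, against 2329, 2199, 2380.4 and 2264 in KO cortex, and 1162, 861, 1054 and 625 in WT striatum, against 2191, 2397, 2431 and 2466 in WT cortex. It was among the steadiest members in cortex, and every striatum library had less than every cortex library, with log2 fold changes of -1.68 (SE 0.18, adjusted p = 8.17e-06) in KO and -1.39 (SE 0.17, adjusted p = 1.14e-05) in WT. Ier2 averaged 93.7 ± 44.1 in KO striatum, 242 ± 48.5 in KO cortex, 94.2 ± 5.32 in WT striatum and 217 ± 121 in WT cortex, with log2 fold changes of -1.43 (SE 0.33, adjusted p = 0.00352) in KO and -1.06 in WT. Btg2, a partner of the mRNA deadenylase, averaged 335 ± 145 in KO striatum, 564 ± 190.3 in KO cortex, 229.8 ± 61.7 in WT striatum and 577 ± 376 in WT cortex. It passed in WT mice at -1.16 (SE 0.37, adjusted p = 0.017), a call lost without WT cortex 7 (adjusted p = 0.0534), the library in which Btg2 was highest. Gadd45b, a stress-inducible protein tied to DNA demethylation, averaged 246 ± 78.4 in KO striatum, 274 ± 23.3 in KO cortex, 209 ± 41.5 in WT striatum and 245 ± 54.1 in WT cortex and did not pass. The kinase Pim1 did not pass either and averaged 125 ± 9.84 in KO striatum, 126 ± 17.7 in KO cortex, 108 ± 12.2 in WT striatum and 107 ± 32.2 in WT cortex.

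Rgs2 and Sik1 went the other way. Rgs2, which shortens signalling through Gq-coupled receptors, had 2781, 2609 and 1545 in KO striatum, against 1297, 1692, 1482 and 1273 in KO cortex, and 3054, 3205, 3407 and 2343 in WT striatum, against 1288, 1548, 1529 and 1333 in WT cortex. The WT striatum lay wholly above the WT cortex, and in KO mice only KO striatum 4 reached down among the cortex libraries. Its log2 fold change was 0.65 in KO mice and 1.07 in WT mice, and the KO call was lost without KO striatum 2 (adjusted p = 0.0566). Sik1, a kinase that holds CREB coactivators out of the nucleus, had 401, 739.6 and 515 in KO striatum, against 394, 226, 378 and 296 in KO cortex, and 429, 374, 498 and 424 in WT striatum, against 218, 183, 285 and 356 in WT cortex. Striatum lay above cortex without overlap in both genotypes, with log2 fold changes of 0.76 in KO and 0.76 in WT. The KO call of Sik1 was lost without KO cortex 2, KO cortex 4 or KO striatum 3 (adjusted p = 0.0537 to 0.124).

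Of the 6 effectors, Ptgs2 and Arc were lower and Scg2 was higher in striatum in both genotypes. Ptgs2 encodes cyclooxygenase 2, the inducible enzyme of prostaglandin synthesis that excitatory cortical neurons make. It had 185, 154 and 248 in KO striatum, against 750.2, 936, 952 and 677 in KO cortex, and 79.6, 61, 58.3 and 41.3 in WT striatum, against 415, 588, 872 and 642 in WT cortex. Every striatum library lay below every cortex library, and the log2 fold change was -2.09 (SE 0.25, adjusted p = 1.67e-05) in KO and -3.35 (SE 0.23, adjusted p = 4.01e-08) in WT mice. Arc, which acts on the removal of AMPA receptors from synapses, had 1443, 1792 and 1670.3 in KO striatum, against 7028, 3830.2, 8005 and 8828 in KO cortex, and 1579, 1319.9, 2497 and 1439 in WT striatum, against 2758, 4414, 8322 and 6212 in WT cortex. All striatum libraries were lower than all cortex libraries, with log2 fold changes of -2.02 (SE 0.34, adjusted p = 0.00033) in KO and -1.60 (SE 0.31, adjusted p = 0.000676) in WT.

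Scg2, the granin secretogranin II of dense-core vesicles, had 10893, 12897 and 7752 in KO striatum, against 4119, 5092, 4722 and 4741 in KO cortex, and 7315, 10432, 9826 and 10197 in WT striatum, against 4837, 3838, 4931 and 4348 in WT cortex. All striatum libraries were higher than all cortex libraries, and the log2 fold change was 1.14 in KO and 1.07 in WT. Inhba, a subunit of activin, averaged 164 ± 68.7 in KO striatum, 240.5 ± 18.9 in KO cortex, 170.1 ± 57.2 in WT striatum and 197 ± 26.6 in WT cortex and did not pass. In KO mice Inhba passed, lower in striatum, without KO striatum 2 (adjusted p = 0.0107) or WT striatum 8 (0.0353). Arl4d, a small GTPase, averaged 448 ± 80.9 in KO striatum, 433 ± 108 in KO cortex, 602 ± 153 in WT striatum and 443 ± 101 in WT cortex and did not pass. In WT mice Arl4d passed, higher in striatum, with a block on the replicate number (adjusted p = 0.00858) and without WT striatum 6 (0.0357). The kinase Plk2, known for weakening synapses after long activity, did not pass between tissues, at -0.48 in KO and 0.13 in WT, and averaged 3754 ± 1140.5 in KO striatum, 5059.8 ± 220.0 in KO cortex, 5265 ± 1231 in WT striatum and 4692 ± 195 in WT cortex. Without the striatum libraries low in striatal markers it passed in WT mice at 0.31 (adjusted p = 0.00147). In KO mice it passed without KO striatum 2 (-0.64, adjusted p = 0.0311), KO striatum 3 (-0.61, adjusted p = 0.0417) or WT striatum 8 (-0.48, adjusted p = 0.0272).

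**Figure D2:**
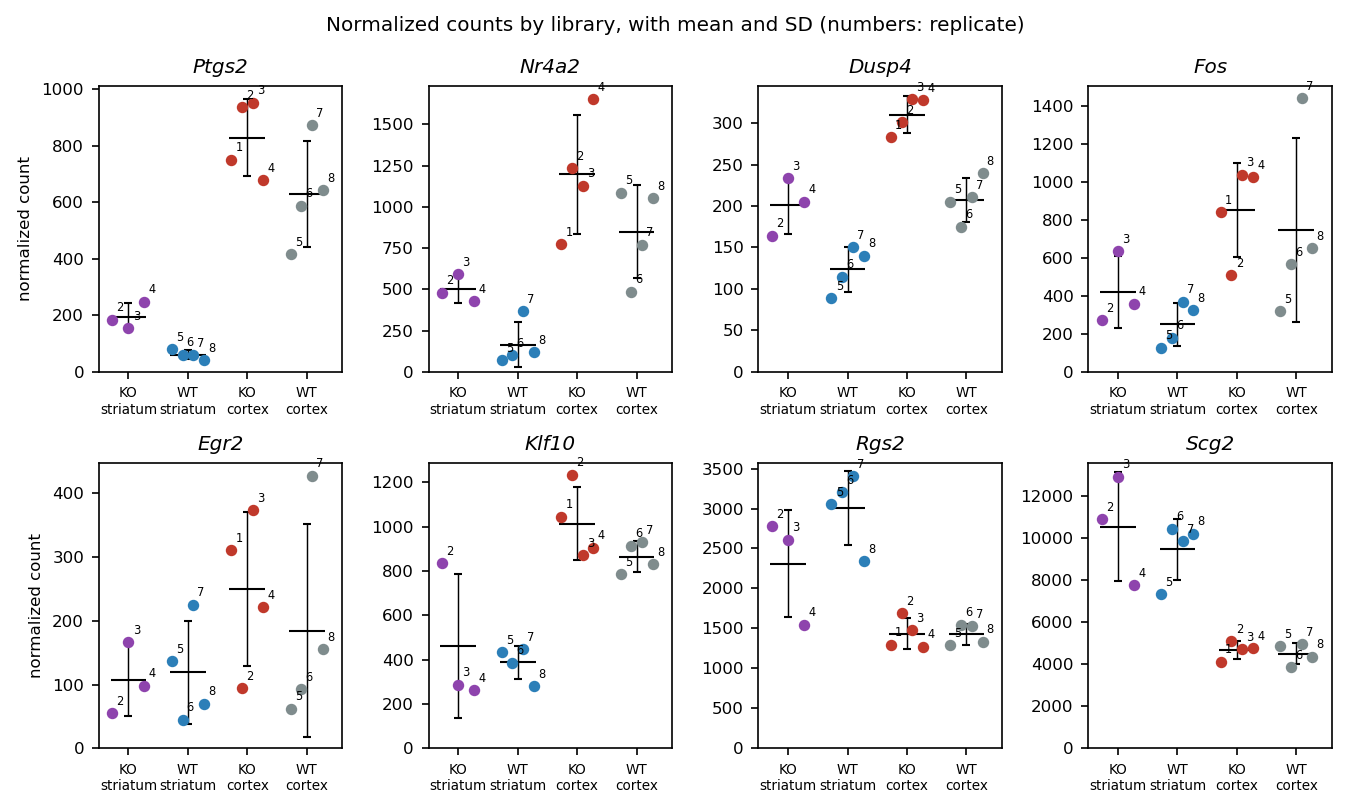
Normalized counts of 8 members in every library (points, numbered by replicate), with the mean (line) and SD (bar) of each group; each panel has its own scale from 0. Ptgs2 is low in all striatum libraries and lowest in WT striatum, while Rgs2 and Scg2 are on average higher in striatum than in cortex.

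The other genes of the pathway, listed by their known role, are read against the same shares of all genes, 37.9% called in KO mice (19.5% lower, 18.4% higher) and 50.5% in WT mice (25.7% lower, 24.9% higher). Of 29 genes that carry activity to transcription, 12 were called lower and 3 higher in striatum in KO mice and 11 lower and 5 higher in WT mice. Mef2c, an activity-dependent factor of cortical neurons, had 4367 ± 959 normalized counts in KO striatum and 22213 ± 2488 in KO cortex, with log2 fold changes of -2.36 in KO and -2.42 in WT mice. The kinase Camk2a was at -1.52 in KO and -1.49 in WT, and Camk2g at -1.10 and -1.39. Rps6ka5, a nuclear kinase that phosphorylates CREB and histones, was higher in WT striatum at 1.39.

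Among 13 of 14 other early response genes that passed the filter, 6 were called lower and 0 higher in KO mice, and 4 lower and 2 higher in WT mice. Trib1 was at -1.17 in KO and -1.10 in WT, and Crem, which gives rise to a repressor of CREB targets, at -0.67 and -0.56. Of 14 genes of the delayed wave, 6 were called lower and 2 higher in KO mice and 6 lower and 3 higher in WT mice. They included Nptx2, which clusters AMPA receptors, at -1.37 in KO and -1.58 in WT, and Nrn1 at -1.89 and -2.74. Of 8 glucocorticoid-responsive genes, 2 of which are also on the early response list, 2 were called lower in KO and 1 in WT mice, Zbtb16 in both at -1.68 and -1.72.

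The second question was whether the loss of Slc1a4 went with a difference in the set within striatum. There 1 of 35 members passed, Ptgs2, which was higher in KO striatum; the test called 0.0763% of all genes, 0.0705% higher and 0.00587% lower. That background of 13 genes rested on single libraries and on the tool: it was 516 genes without KO striatum 4, 187 without WT striatum 8, 4 without WT striatum 6 and 320 with DESeq2. Ptgs2 had 185, 154 and 248 normalized counts in KO striatum, against 79.6, 61, 58.3 and 41.3 in WT striatum. The lowest KO library was above the highest WT library, and the means were 196 ± 47.6 in KO and 60.1 ± 15.7 in WT (SD, n = 3 and 4). The log2 fold change was 1.70 (SE 0.25, adjusted p = 0.0196), and a two-sided exact permutation test over the 7 libraries gave p = 0.0286, the smallest it can give. That permutation test was planned for Slc1a4 only. Ptgs2 is the member called from these same libraries, and the p is not adjusted for that choice, so it adds no separate evidence. The call was lost without KO striatum 2 (adjusted p = 0.0546), without WT striatum 6 (0.061), with voom on the recovered reads (0.18) and when striatum was fitted alone (0.679). It held in 24 of the 28 alternative settings, over all of which the log2 fold change ran from 1.35 to 1.85. These 28 include the fits that left out a cortex library, which can alter the shared spread but not this fold change.

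Nr4a2 showed the next smallest p. It had 479.6, 590.4 and 428 normalized counts in KO striatum, against 69.4, 102, 369 and 118 in WT striatum. The groups did not overlap, and WT striatum 7 stood above the other WT libraries. Its log2 fold change of 1.89 (SE 0.44, adjusted p = 0.128) did not pass; without WT striatum 7 it was 2.38 (adjusted p = 0.00524) and without KO striatum 4 it was 2.0 (adjusted p = 0.0473), both past the threshold. Dusp4, a nuclear MAP kinase phosphatase, had 164, 234 and 205 in KO striatum, against 88.7, 115, 150.3 and 139.9 in WT striatum. These groups did not overlap either, and the log2 fold change was 0.71 (SE 0.17, adjusted p = 0.138); it passed with DESeq2 on the recovered reads (adjusted p = 0.0108) and without the 2 libraries low in striatal markers (0.0491).

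Plk2 and Rgs2 were the next 2 members, both lower on average in KO striatum and not past the test. Plk2 had 4486, 4336 and 2439.8 in KO striatum, against 6229, 5148, 6116 and 3567 in WT striatum, a log2 fold change of -0.51 (SE 0.20, adjusted p = 0.255). The groups overlapped, and the lowest library of each was the one lowest in striatal markers; without those 2 libraries the change was -0.40 and passed (adjusted p = 0.0208). The log2 fold change of Rgs2 was -0.41 (SE 0.18, adjusted p = 0.296), with overlapping groups. Without KO striatum 4 it was -0.14, and that of Plk2 -0.22. Besides Ptgs2, Nr4a2 and Dusp4, the groups did not overlap for Pim1 at 0.21, making 4 members that were higher in every KO library, against 3.96% of all genes, and 0 that were lower, against 4.12%.

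Over the whole set in striatum, 19 of 35 members were above 0 and 16 below, with a median log2 fold change of 0.055 against 0.0079 over all genes tested; without WT striatum 6 the median of the members was -0.077. At an unadjusted p under 0.05 there were 5 members and 2598 of all genes. The classical activity markers were among the members that did not pass: Fos was at 0.79 with a 95% interval of -0.21 to 1.78, Arc at -0.023 with -0.74 to 0.70, Egr1 at -0.17 with -0.76 to 0.43, and Npas4 at 0.26 with -0.92 to 1.45. These intervals leave room for changes in either direction. Without the 2 choroid-rich libraries 1 member passed and 341 of all genes were called, and without the 2 libraries low in striatal markers 3 members passed and 861 of all genes were called, against 13 of all genes with every library.

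Markers of neurons also differed on average between KO and WT striatum, though within a group the order of the libraries was not always that of Ptgs2 or Nr4a2. The 9 markers of cortical excitatory neurons summed to 11741, 6804 and 12712 normalized counts in KO striatum, against 3198, 3517, 4947 and 7415 in WT striatum; 8 of the 9 had a log2 fold change above 0, and 1, Neurod2, passed at 2.30 (SE 0.38, adjusted p = 0.03). An unadjusted p under 0.05 was found for 7 of the 9, and edgeR called 1, DESeq2 5 and voom 0. Within WT striatum, Ptgs2 was lowest in replicate 8, where this sum was highest. Within KO striatum, Nr4a2 was highest in replicate 3, where the sum was lowest. Ptgs2 within KO striatum went in the order of the sum, highest in replicate 4 and lowest in replicate 3. Nr4a2 within WT striatum was lowest in replicate 5, as the sum was, but highest in replicate 7. The 12 markers of striatal projection neurons summed to 110769, 105413 and 48114 in KO striatum, against 210352, 143757, 176229 and 95331 in WT striatum, with a log2 fold change below 0 for 12 of 12 and a median of -0.83. With limma 0 of the 12 passed, 6 having an unadjusted p under 0.05; edgeR, DESeq2 and voom called 0 as well. No marker of either list was at 0 throughout a group. Ptgs2 and Nr4a2 are the 2 members with the largest deficit in WT striatum relative to WT cortex. The same WT striatum libraries enter both that deficit and the comparison with KO striatum, so these differences are not independent. Bdnf, a delayed activity gene that cortical neurons also make, had 374 ± 86.2 in KO striatum, against 102 ± 56.6 in WT striatum (log2 fold change 2.13, SE 0.43, adjusted p = 0.0975). The part of these markers in the Ptgs2 and Nr4a2 values was not tested.

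**Figure D3:**
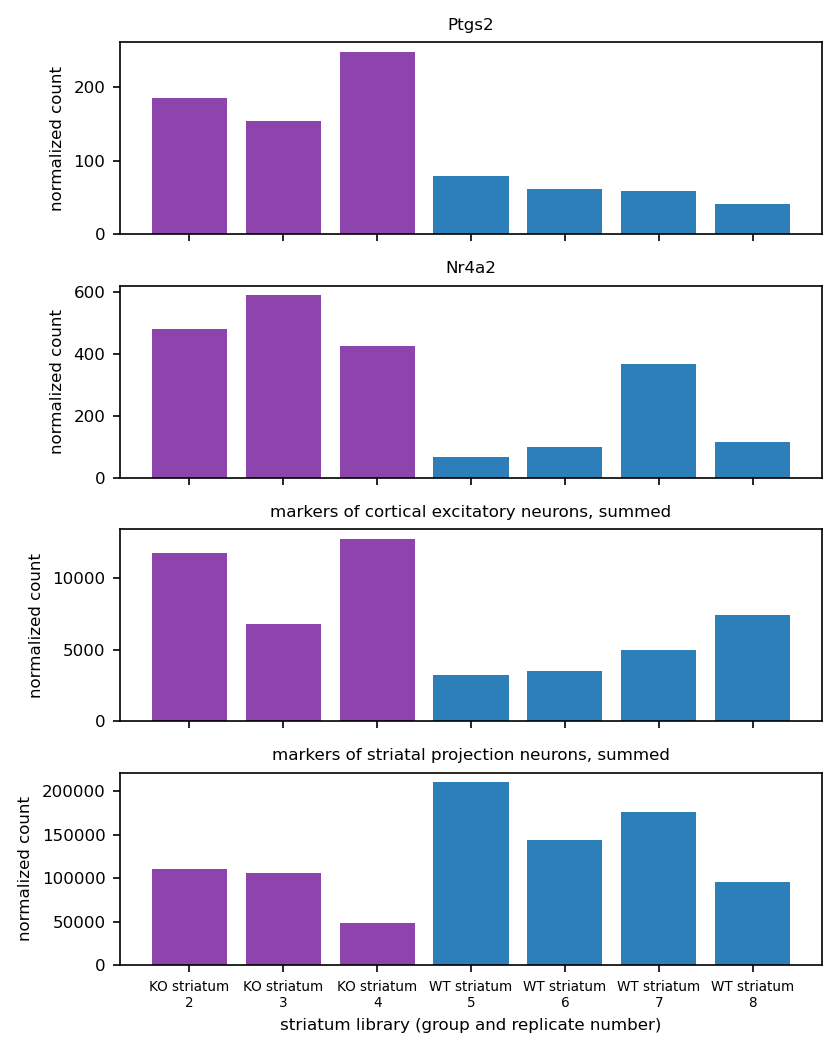
Normalized counts in each striatum library of Ptgs2, Nr4a2, the 9 summed markers of cortical excitatory neurons and the 12 summed markers of striatal projection neurons, KO (purple) left of WT (blue); bars start at 0. Ptgs2 and Nr4a2 are higher in all 3 KO libraries, cortical marker sums are higher in KO apart from an overlap of KO striatum 3 with WT striatum 8, and striatal marker sums reach their highest values in WT.

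In cortex 0 of 35 members passed between KO and WT, where the test called 0.00587% of all genes, the single gene being Slc1a4 itself. At an unadjusted p under 0.05 there was 1 member, Dusp4, and 427 of all genes, and edgeR, DESeq2 and voom on the recovered reads called 0 members as well. Dusp4 had 283, 301, 329 and 327 normalized counts in KO cortex, against 205, 175, 210.2 and 239.6 in WT cortex. All KO libraries lay above all WT libraries, the only member without overlap, against 1.73% of all genes higher and 2.28% lower in this way. The log2 fold change of Dusp4 in cortex was 0.58 (SE 0.16, adjusted p = 1). As in striatum the KO mean was the higher one, but neither difference passed.

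The 4 members with the next smallest p were Nr4a3 at 0.58 (SE 0.27, adjusted p = 1), Ptgs2 at 0.43 (SE 0.23, adjusted p = 1), Dusp5 at 0.30 (SE 0.17, adjusted p = 1) and Pim1 at 0.27 (SE 0.18, adjusted p = 1). Ptgs2 had 750.2, 936, 952 and 677 in KO cortex, against 415, 588, 872 and 642 in WT cortex, with overlap. Of the set, 31 of 35 members were above 0 in KO cortex, with a median log2 fold change of 0.22 against 0.0012 over all genes. The median depended on single libraries: it was 0.098 without WT cortex 5, which had the lowest value of its group for 21 members, and 0.36 without WT cortex 7, which had the highest for 25. Choroid plexus markers summed to 1515 to 6510 in KO cortex and 670 to 2110 in WT cortex, with a log2 fold change above 0 for 9 of 9, none called by limma and none at 0 throughout a group. Striatal projection neuron markers summed to 10187 to 15284 in KO cortex and 10269 to 24316 in WT cortex, with a log2 fold change below 0 for 12 of 12 and a median of -0.42. Endothelial and pericyte markers summed to 9865 to 11818 in KO cortex and 8468 to 12167 in WT cortex, with a log2 fold change above 0 for 10 of 10 and a median of 0.11. Limma called 0 of either list, with an unadjusted p under 0.05 for 0 of the striatal and 1 of the endothelial markers, and edgeR, DESeq2 and voom called 0. The part of these 3 lists in the members' values was not tested.

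**Figure D4:**
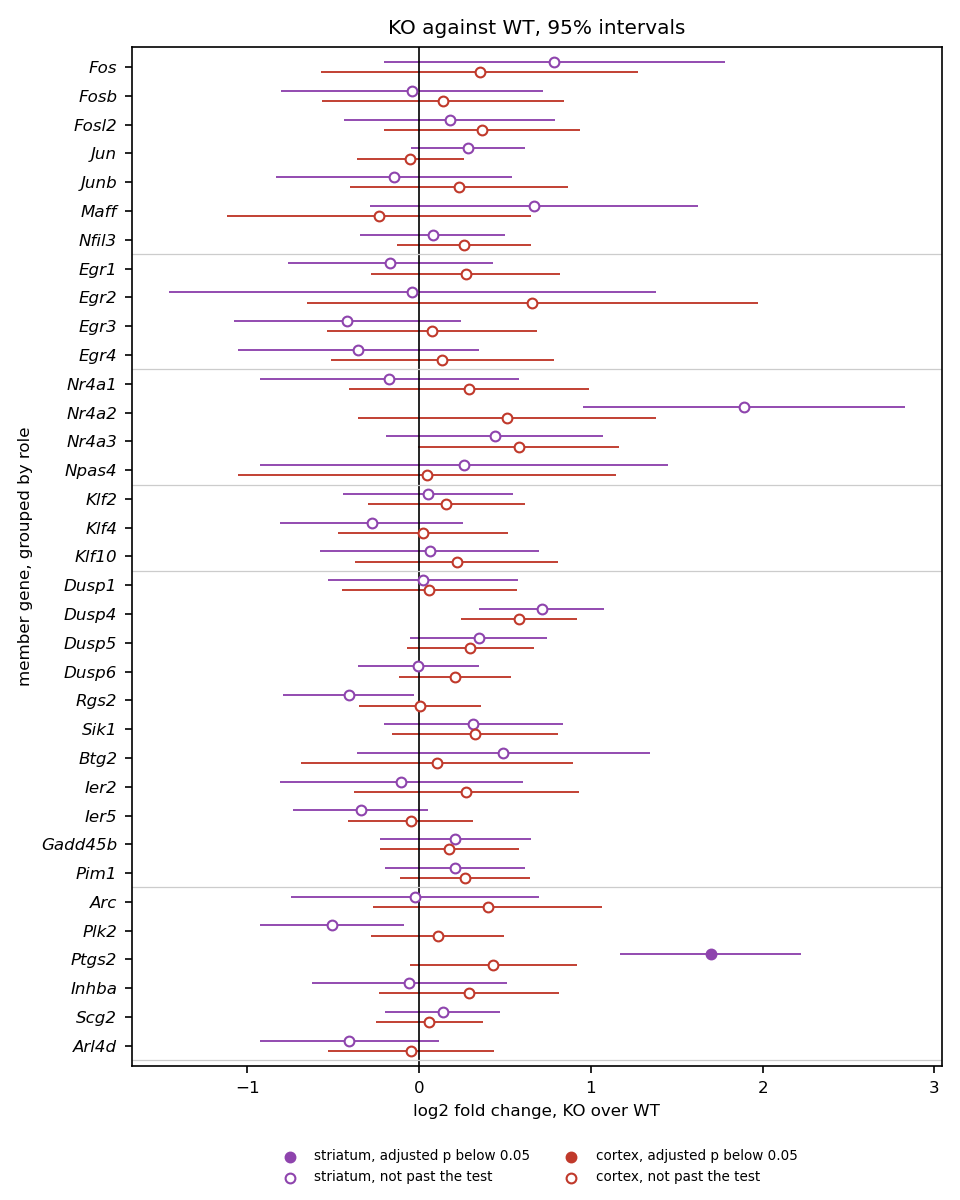
Log2 fold change of each member between KO and WT in striatum (purple) and cortex (red), with 95% intervals; filled points passed the test. Ptgs2 in striatum is the only filled point, and most intervals include 0.

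With limma, 0 of 29 genes that carry activity to transcription, 0 of 13 other early response genes, 0 of 14 delayed genes and 0 of 8 glucocorticoid-responsive genes were called between KO and WT in either tissue. In cortex none of these genes had an unadjusted p under 0.05, and edgeR, DESeq2 and voom called 0. In striatum 4, 2, 5 and 0 genes of these lists, in that order, had an unadjusted p under 0.05; voom called 0, edgeR called 1, the delayed gene Bdnf, and DESeq2 called Bdnf and the signalling gene Rps6ka5. In striatum the smallest p values of the signalling list belonged to Rps6ka5, at -0.57 (SE 0.15, adjusted p = 0.169), and Camk4, at -0.51 (SE 0.17, adjusted p = 0.207). In cortex the early response genes Atf3 and Csrnp1 were at 0.62 (SE 0.30) and 0.25 (SE 0.12), both with an adjusted p of 1.

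Whether the KO difference itself differed between the tissues was tested as an interaction, and 0 of 35 members passed, where 0.00587% of all genes did. At an unadjusted p under 0.05 there were 3 members and 834 of all genes, and edgeR, DESeq2 and voom called 0 members too. Ptgs2 had the smallest p, with a KO effect larger in striatum by 1.27 (SE 0.33, adjusted p = 0.961) on the log2 scale. Nr4a2 was at 1.38 (SE 0.60, adjusted p = 0.961), Plk2 at -0.61 (SE 0.27, adjusted p = 0.961), Rgs2 at -0.42 (SE 0.24, adjusted p = 0.962) and Jun at 0.34 (SE 0.21, adjusted p = 0.962). The same contrast is the difference between the KO and WT tissue comparisons, so no member was shown to differ between striatum and cortex by a different amount in KO than in WT mice.

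The members varied far more between libraries of a group than genes did in general. The median SD of log2 values was 0.43 in KO striatum, 0.38 in WT striatum, 0.38 in KO cortex and 0.38 in WT cortex for the members, against 0.22, 0.17, 0.12 and 0.12 for all genes tested. The most variable members were Klf10 in KO striatum (SD 0.93), Npas4 in WT striatum (1.11) and Egr2 in KO cortex (0.87) and WT cortex (1.19). The steadiest were Pim1, Ier2, Ier5 and Plk2, with SDs of 0.11, 0.081, 0.050 and 0.060 in those 4 groups.

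This variation ran through many members at once, library by library. WT cortex 7 was the highest of its group for 25 of 35 members and the lowest for 0, while 27.3% of all genes were highest there. WT cortex 5 was the lowest for 21 members and the highest for 2, against 17.7% of all genes lowest there. In KO cortex, replicate 2 was the lowest for 20 members, against 31.05% of all genes. The members lowest in KO cortex 2 included Fos, Fosb, Egr1 to Egr4, Arc and Nr4a1. It was the highest for 10 members, Jun, Klf10 and Maff among them, a share near the 28.45% of all genes highest there.

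In striatum, WT striatum 7 was the highest of its group for 19 members, with Fos, Egr1, Arc, Npas4 and Nr4a1 among them, against 21.1% of all genes. WT striatum 6 was the lowest for 15, against 20.4%. KO striatum 3 was the highest for 16, with Fos, Fosb, Egr1 to Egr4, Arc and Npas4, against 32.25% of all genes in that group of 3. WT striatum 8 was the highest for 9 members and the lowest for 10, against 30.06% and 28.04% of all genes. The 8 glucocorticoid-responsive genes summed to 19705 normalized counts in WT striatum 8, against 8417 to 11438 in the other striatum libraries, and to 15979 in WT cortex 8, against 8666 to 11249 in the other cortex libraries. The part of these genes in the values of the members was not tested.

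**Figure D5:**
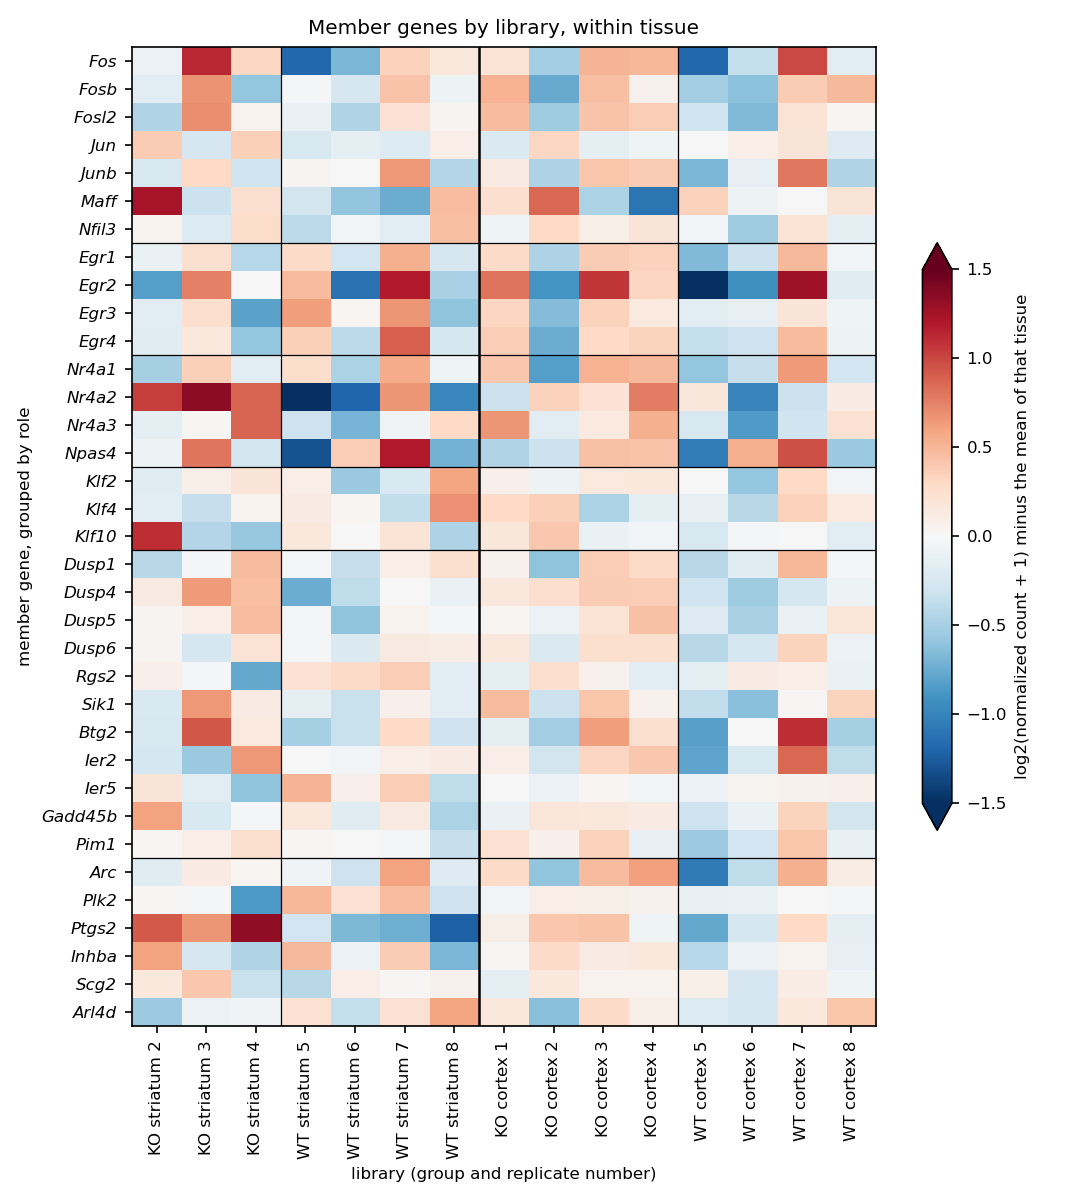
Log2(normalized count + 1) of each member (rows, by role) in each library (columns), minus the mean of all libraries of that tissue; red is above and blue below the mean. WT cortex 7 is mostly red and WT cortex 5 mostly blue, and KO cortex 2 is blue for the EGR genes and for Fos, Fosb and Nr4a1 but red for Jun and Maff.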

How the data were processed

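RNA sequencing of 15 mouse libraries was analysed. Per the submitters' processing notes, the build was GRCm38 and the tools were TopHat2 2.1.1, HTSeq 0.6.0, cutadapt 1.1, DESeq2 1.12.4 and FastQC 0.11.5; the strand setting, the annotation release and the role of each tool are not given in the sources used here. The deposited table holds normalized counts, a signal that the authors made by dividing read counts by 1 factor per library; 100% of values lay within 0.001 of a whole read count after division by that step, which gave the depth of each library and the reads for the count-based alternatives. Positions and exon overlaps came from the GENCODE annotation of GRCm38, promoters from RefSeq (GRCm38.p6).

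Genes at 10 or more in at least 3 libraries (17030) entered a limma fit (limma 3.58.1 under R 4.3.3) to log2(normalized count + 1), with a mean for each of 4 groups over all 15 libraries, a variance trend, and Benjamini-Hochberg adjustment over all genes tested; a gene was called at an adjusted p below 0.05. Fold changes on this scale understate those of genes with few reads. The fit was also run on simulated counts in which genes varied independently and the tissues did not differ. That setting is simpler than these data, and nothing above rests on it. All 35 members were named; full test values were given for called members, for at most 12 with the largest change, or for the 5 with the smallest p where fewer than 5 were called. Of a pathway list, up to 4 called members were named, or the 2 with the smallest p. The members and the gene lists were chosen with earlier results of these data known. The alternatives left out single libraries, blocked on the replicate number, fitted 1 tissue or genotype, weighted samples, varied pseudocount, filter and scaling, or ran voom, DESeq2 1.42.0 and edgeR 4.0.16 on the reads recovered.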

Additional observations from a re-analysis of the deposited data

Results flagged for a closer look

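A single library far from the other 3 of its group was found 7 times among 105 groups of 4 (35 members in the 3 groups that hold 4 libraries), by Dixon's test at the 95% level; chance flags about 1 group in 20. The 7 flags are therefore not far above what chance gives. Of these, 4 were KO cortex 2, which was the lowest of its group for 20 members, so the 4 are not separate events. There Fosl2 had 809 normalized counts, against 1514 to 1633 in the other KO cortex libraries. Egr1 had 5317, against 8956 to 9556. Egr4 had 429, against 883 to 927, and Nr4a1 had 1443, against 3379 to 3687. In WT striatum, Nr4a2 had 369 in replicate 7, against 69.4 to 118 in the others. Dusp5 had 99.6 in WT striatum 6, against 149 to 157, and Pim1 had 90.1 in WT striatum 8, against 113 to 116. No explanation for these values was tested.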

How the results depend on the processing

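No called result reversed its direction under any alternative; the median of the members in striatum between KO and WT, 0.055, was -0.077 without WT striatum 6. The count of members called in striatum between KO and WT, 1 as reported, was 2 with DESeq2, 0 with voom, 0 when striatum was fitted alone, 3 (2 higher, 1 lower) without the 2 libraries low in striatal markers, and 0 to 2 when each library was left out in turn. In cortex and in the interaction it stayed at 0 in all fits that left out 1 library. Between tissues, leaving out 1 library gave 17 to 23 members called in KO mice and 19 to 23 in WT mice, and a median log2 fold change of -1.19 to -0.84 in KO and -0.88 to -0.59 in WT. Slc1a4 in striatum kept its log2 fold change of -2.56 with striatum fitted alone, but its adjusted p was then 0.0926; the fit holds fewer samples.

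The labels do not say that a replicate number marks 1 animal. Over all genes, libraries with the same number correlated at 0.0037 to 0.14 in their deviations from the group means. Over the 35 members alone, which are not independent of each other, the range was 0.061 to 0.74. Libraries of a genotype with different numbers ranged from -0.70 to 0.45 over the members and from -0.17 to 0.13 over all genes. Every library with a partner correlated best with its own number over all genes, except WT cortex 7, WT striatum 7 and KO striatum 3. Because of these exceptions and the silent labels, the numbers were not taken to pair the samples. The main tests between tissues therefore ignored the numbers. With the replicate block, 26 members were called between tissues in KO mice, 25 in WT mice and 0 in the interaction. No block could be fitted between KO and WT, which share no number. With 3 or 4 libraries a group and the spread between libraries of these genes, the 95% intervals are wide, and a member that did not pass is not shown to be unaltered.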

Other observations

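Libraries of striatum and cortex that carry the same replicate number were compared for their extremes, although the labels do not say that a number marks 1 animal. WT 7 was the highest of its group in both tissues for 13 of 35 members: Arc, Btg2, Dusp6, Egr1, Egr2, Egr3, Egr4, Fos, Fosl2, Junb, Klf10, Npas4 and Nr4a1. Of all genes, 5.89% were highest in both. KO 2 was the lowest of its group in both tissues for 12 members, with Arc, Fos, Fosl2 and Nr4a1 among them, and the highest in both for 7: Gadd45b, Inhba, Jun, Klf10, Maff, Plk2 and Rgs2, against 10.52% of all genes lowest and 10.53% highest in both. KO 3 was the highest in both for 9 members, with Fos, Egr1, Egr2, Egr3 and Npas4 among them, against 8.78% of all genes, and WT 6 was the lowest in both for 7 members, against 4.95%. The other numbers shared few extremes: KO 4 was the highest in both for 3 members and the lowest for 1, WT 5 for 0 and 3, and WT 8 for 2 and 0, against 6.98% to 11.3% of all genes.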
